A study of Mus musculus with 136 samples.

Results

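Cytosolic and mitochondrial heat shock genes were followed in 6 mouse tissues after injection of iodine-131 (131I), a radioactive isotope of iodine that the thyroid takes up. The set consisted of 10 genes chosen by name, namely Hspa1a, Hspa1b, Hspa8, Hsph1, Hsp90aa1, Hsp90ab1, Dnajb1, Hspb1, Hspd1 and Hspe1, and every array probe annotated to them was used. Of the 25697 probes on the array, 11 were annotated to 8 of the 10 genes. Hspa1b and Hsp90ab1 had no annotated probe and were not analysed here. Female BALB/c nude mice aged 9 months received 90 kBq 131I in saline, or saline alone, in the tail vein at 9:00, 12:00 or 15:00, and were killed 24 h later. The thyroid, kidney cortex, kidney medulla, liver, lungs and spleen came from the same animals, so that tissues are not independent of each other. Nude mice lack mature T cells, and the animals of each treatment and injection time shared a cage, so that cage and group cannot be told apart. The 136 arrays held 130 replicates (71 from 131I mice, 59 from saline mice) in 36 groups of 3 or 4. The remaining 6 arrays were repeats of a replicate and were averaged with it.

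Heat shock proteins are chaperones, which bind unfolded proteins and help them reach or regain their shape. Heat shock factor 1 (HSF1) switches on their genes by binding repeats of the bases nGAAn in alternating orientation. In the cytosol, HSP70 proteins (the inducible Hspa1a and Hspa1b and the constitutive Hspa8) work with the HSP40 co-chaperone Dnajb1, which delivers substrates and stimulates ATP hydrolysis, and with the HSP110 protein Hsph1, which exchanges their nucleotide. HSP90 proteins (inducible Hsp90aa1, constitutive Hsp90ab1) complete the folding of kinases and steroid receptors, and the small heat shock protein Hspb1 holds unfolded proteins and stabilises the cytoskeleton. In mitochondria, Hspd1 (HSP60) forms the folding chamber and Hspe1 (HSP10) is its lid. Cells of the renal medulla live in concentrated salt and urea, and HSP70 and Hspb1 are known to be abundant there.

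The sequences before the start of 4 members are shown because they carry HSF1-type motifs, which not all member windows did. RefSeq promoter windows (GRCm38.p6, 250 bases before to 50 bases after the annotated start) matched 7 of the 10 genes in 10 windows. Either motif, GAANNTTC or TTCNNGAA, was searched for. Both motifs read the same on the other strand, and neighbouring matches can overlap by 3 bases. Capitals mark the motifs in the 250 bases before each start, given 5′ to 3′ on the strand of the gene.
Hspe1, chr1:55087898-55088147, plus strand: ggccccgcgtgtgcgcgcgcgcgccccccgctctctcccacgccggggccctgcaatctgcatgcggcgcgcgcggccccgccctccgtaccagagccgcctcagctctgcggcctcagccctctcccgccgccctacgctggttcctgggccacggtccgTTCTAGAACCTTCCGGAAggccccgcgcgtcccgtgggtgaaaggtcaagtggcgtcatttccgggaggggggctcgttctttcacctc
Hspb1, chr5:135887669-135887918, plus strand: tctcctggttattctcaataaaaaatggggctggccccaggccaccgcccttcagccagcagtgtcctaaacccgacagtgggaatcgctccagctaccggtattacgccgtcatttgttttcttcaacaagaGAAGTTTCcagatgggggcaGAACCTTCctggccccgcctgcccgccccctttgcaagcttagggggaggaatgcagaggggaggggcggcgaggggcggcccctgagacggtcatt
Hsph1, chr5:149636337-149636586, minus strand: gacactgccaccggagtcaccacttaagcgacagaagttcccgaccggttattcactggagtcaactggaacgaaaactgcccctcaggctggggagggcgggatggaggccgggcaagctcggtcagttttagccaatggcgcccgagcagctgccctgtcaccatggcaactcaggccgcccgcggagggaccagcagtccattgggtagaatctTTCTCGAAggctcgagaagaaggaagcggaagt
Hspa1a, chr17:34972157-34972406, minus strand: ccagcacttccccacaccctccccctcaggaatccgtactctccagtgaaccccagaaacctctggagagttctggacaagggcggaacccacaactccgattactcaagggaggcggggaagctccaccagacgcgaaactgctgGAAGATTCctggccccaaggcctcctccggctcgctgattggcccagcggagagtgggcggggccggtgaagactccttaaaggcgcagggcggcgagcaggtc
Among all 32851 mouse promoter windows, 15.06% held either motif. The 3-unit form, in which both motifs overlap, was in 0.6% of them. Hspe1 held the 3-unit form, with matches beginning at positions -89, -84 and -79 from the start. Hspe1 and Hspd1 are neighbours on chromosome 1 that run in opposite directions (Hspd1 55077833 to 55088243, Hspe1 55088148 to 55091317), and 285 bases of the Hspe1 window were also in the second Hspd1 window, where the same matches began at -144, -139 and -134. The first Hspd1 window, with a start further upstream, shared 4 bases with it and held no match. Hspb1 (chromosome 5) held single matches at -117 and -97. Hsph1 (chromosome 5) had a match at -33 in its first window and 3-unit matches beginning at 37 after the start, which are not printed. Hspa1a and Hspa1b (chromosome 17) each had 1 match at -104, and their windows differed in 4 of 300 bases. The Hspa1a probe may also read Hspa1b RNA, which was not tested. The Dnajb1 windows held neither motif.

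On a single array, 34.7% to 51.9% of all probes were above background (detection p under 0.01). Levels below are log2 of background-corrected intensity, quantile-normalized within each tissue, so a difference of 1 is a 2-fold change. A probe was called regulated at an adjusted p under 0.01 (limma, Benjamini-Hochberg over all probes tested in the tissue) together with a fold of at least 1.5. Of the 11 member probes, 10 were tested in at least 1 tissue. The second Hsp90aa1 probe was above background on 1 of 136 arrays and was tested nowhere. Hspa1a was above background on 0 of 23 liver arrays, 1 of 23 spleen arrays and 10 of 23 thyroid arrays, and on every array of the cortex, medulla and lung. Hspb1 was above background on 19 of 23 spleen arrays and on all arrays elsewhere. In the 6 repeats, the Hsp90aa1 probe differed between the arrays of a replicate by 0.18 to 1.39 (median 1.15) and the second Hspd1 probe by 0.09 to 1.03 (median 0.54), whereas Hsph1 differed by at most 0.22. Hspe1 differed by 0.11 to 0.66 (median 0.47). Only 3 of the 6 repeat arrays correlated best with their own replicate.

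A pair of libraries carried kidney genes and went against their tissue label in part. The lung library of saline mouse 4 at 9:00 had a proximal tubule list at 8.37, against at most 4.80 in the other 21 lung replicates, and the spleen library of 131I mouse 1 at 12:00 had this list at 9.03, against at most 4.93 in the other spleens. Some member genes were high in each. Hspa1a was 7.91 in this lung library and 5.75 to 5.97 in the rest of its group, and Hspb1 was 8.76 in this spleen library and 5.59 to 5.93 in the rest of its group. Most other members were also highest of their group in this lung library. Hsph1 was 10.31 (others at most 9.32), Hspd1 11.79 (at most 11.02) and Hspe1 10.38 (at most 9.81). Both Hspa8 probes and the second Hspd1 probe were highest too. Dnajb1 (10.43) and Hsp90aa1 (8.86) did not stand above their group. Hspb1 in this lung library was 8.92, the lowest of its group (others 9.07 to 9.36). Other tissue was seen in further libraries. The thyroid library of 131I mouse 2 at 9:00 had a lung epithelium list at 8.16, against at most 4.55 in the other 20 thyroids, and the lung library of 131I mouse 1 at 15:00 had the skeletal muscle list at 8.32, against at most 6.36 in the other lungs. In the thyroid, the labelled tissue was not borne out by its markers. Of 8 genes of thyroid follicular cells on the array, Tg (thyroglobulin), Slc5a5 (the iodide transporter), Pax8, Foxe1, Slc26a4 and Duox2 were above background on 0 of 23 arrays, Nkx2-1 on 1 and Tshr on 17.

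Across 131I against saline at 18 combinations of tissue and injection time, 5 member results passed both thresholds. Hspb1 was higher in the thyroid after 131I at 9:00. Hspa1a and Hspb1 were lower in the kidney medulla, and Hspe1 and Hspd1 lower in the liver, after 131I at 12:00. Other probes were called in these comparisons too, 1495 of 12144 in the thyroid at 9:00, and the share of all probes is given with each result below. No member was called in the cortex, lung or spleen. In the lung and spleen no probe of any gene was called at any injection time.

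Groups that did not overlap were more frequent than calls, among members as among all probes, and were found for 18 member results. In the thyroid they were Hsph1, Hspb1 and Hspd1 at 9:00 (all higher in 131I mice, 28.2% of all probes had groups apart), Hspa8 at 12:00 (higher, 9.28%), and at 15:00 Hspa1a (higher) and the second Hspd1 probe (lower), with 11% of all probes. In the medulla they were Hspa1a (lower) and Hspd1 (higher) at 9:00 (16.2%), 5 probes at 12:00 (23.4%) and none at 15:00 (6.08%). In the liver they were Hspd1 and Hspe1 at 12:00 (both lower, 13.9%) and none at 9:00 (2.63%) or 15:00 (12.1%). The cortex had Hspe1 at 12:00 (lower, 9.12%) and none at 9:00 (2.7%) or 15:00 (4.88%). The lung had Hsph1 at 15:00 (higher, 4.42%) and none at 9:00 (2.61%) or 12:00 (4.25%), and the spleen Hspe1 at 15:00 (higher, 5.61%) and none at 9:00 (3.94%) or 12:00 (4.6%). In the thyroid at 9:00 and the medulla at 12:00, 3 and 5 of 10 member probes stand beside these shares.

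**Figure D1:**
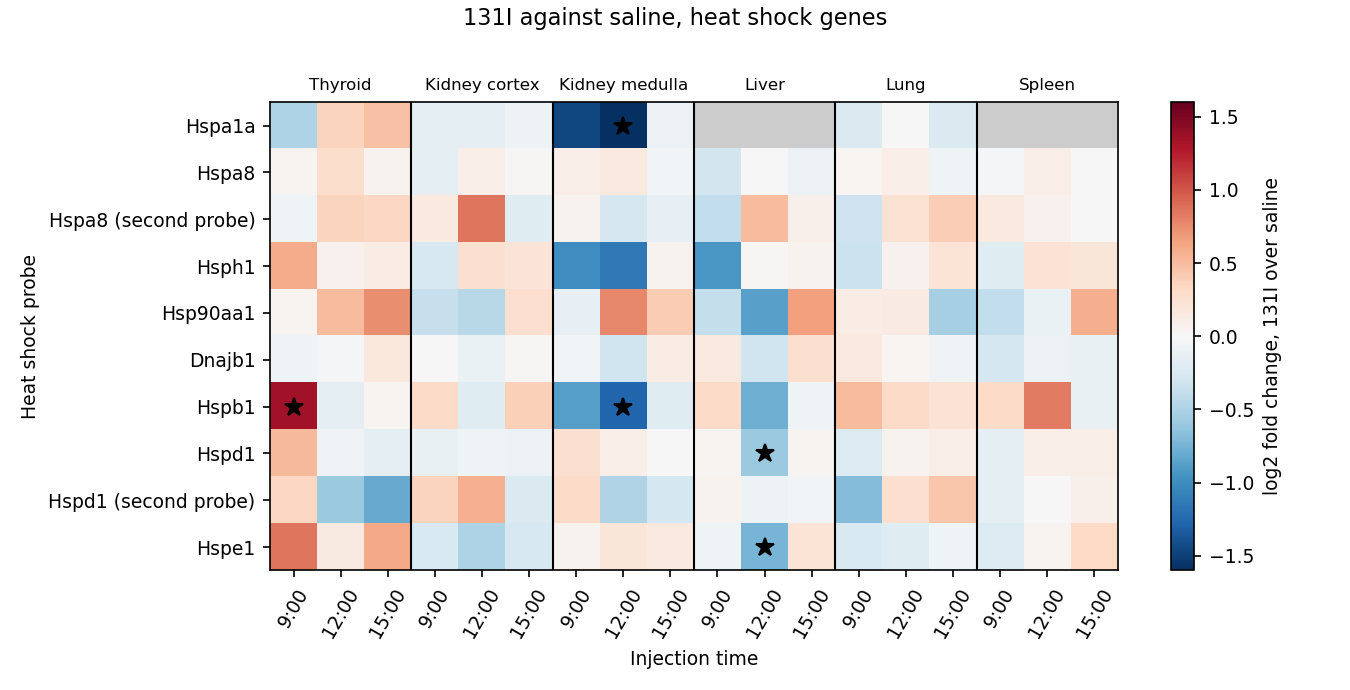
Heat map of the log2 difference of 131I minus saline mice for the 10 member probes tested in at least 1 tissue (down the page) in 6 tissues at 3 injection times (across), with a star on each called difference and grey where a probe was not tested. The 5 stars are Hspb1 in the thyroid at 9:00, Hspa1a and Hspb1 in the medulla at 12:00, and Hspd1 and Hspe1 in the liver at 12:00.

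In the kidney medulla at 12:00, the inducible HSP70 gene Hspa1a was at 7.31, 7.53, 7.94 and 7.29 in 131I mice, against 8.62, 9.69 and 9.00 in saline mice. Every 131I mouse was below every saline mouse. The difference was -1.59 (SE 0.33, 95% confidence interval -2.27 to -0.91), a 3.01-fold lower level (adjusted p = 0.00395). The small heat shock protein Hspb1 was at 8.04, 8.05, 7.59 and 7.69 in 131I mice and 8.80, 9.64 and 8.88 in saline mice, again without overlap, and differed by -1.27 (SE 0.30, interval -1.9 to -0.63, 2.41-fold lower, adjusted p = 0.00938). The Hspa1a call ended without 131I mouse 1 or 4 or without saline mouse 2 or 3 of this time (adjusted p up to 0.0212), and the Hspb1 call in 15 of 21 omissions of a replicate, with an adjusted p of up to 0.0514. Under 12 other settings of the processing the Hspb1 call ended in 7 and its sign turned in 1. These 2 calls among 10 member probes stand beside 4.25% of all 13247 probes called in this comparison. The HSP110 gene Hsph1 was at 10.11, 10.63, 10.56 and 9.57 in 131I mice and 11.05, 12.19 and 10.86 in saline mice. Its groups did not overlap either, but the difference of -1.15 (SE 0.33, adjusted p = 0.0239) missed the threshold. The HSP40 gene Dnajb1 (-0.32) and the constitutive Hspa8 (higher in 131I mice) also had groups that did not overlap, a pattern found in 23.4% of all probes. The median difference of the 10 member probes was -0.30, against -0.02 over all probes.

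At 9:00 in the medulla no member was called, where 0% of all probes were. Hspa1a was at 7.28, 7.48, 7.93 and 8.57 in 131I mice and 9.08, 9.87 and 8.87 in saline mice (-1.46, SE 0.33, adjusted p = 0.0282). Hsph1 was at 9.97, 10.03, 10.36 and 11.21 in 131I mice and 11.27, 11.84 and 11.06 in saline mice (-1.0, adjusted p = 0.0971), and Hspb1 at 7.62, 7.97, 7.73 and 8.90 in 131I mice and 8.51, 9.85 and 8.44 in saline mice (-0.88, adjusted p = 0.117). The fourth 131I mouse was the highest of its group for each of these genes, and only for Hspa1a were the groups apart. At 15:00, where again 0% of all probes were called, the groups overlapped for all 3 genes, with Hspa1a at 7.50, 8.39, 8.33 and 8.87 in 131I mice and 8.80, 8.25 and 8.06 in saline mice. Hsph1 was then at 10.22, 11.09, 10.86 and 11.27 in 131I mice and 10.95, 10.54 and 10.92 in saline mice, and Hspb1 at 8.40, 8.18, 8.61 and 8.78 in 131I mice and 8.71, 8.86 and 8.50 in saline mice. With the 3 times pooled, Hspa1a (-1.05, SE 0.19, interval -1.44 to -0.66, adjusted p = 0.00117) and Hspb1 (-0.78, SE 0.18, interval -1.15 to -0.42, adjusted p = 0.00526) were called, beside 2.79% of all probes, and Hsph1 was not (-0.70, SE 0.19, adjusted p = 0.0175). A dependence of the 131I difference on injection time was not called for Hspa1a (adjusted p = 0.199), in a test where 0% of medulla probes were.

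Markers of the inner medulla moved with these genes. A list of 10 genes of papilla and urothelium, the inner tip of the kidney and the lining of its pelvis, ranged from 6.39 to 7.64 in 131I mice and 8.47 to 9.43 in saline mice at 12:00. At 9:00 it ranged from 6.93 to 8.41 in 131I mice and 8.80 to 9.51 in saline mice, and at 15:00 from 6.80 to 8.56 in 131I mice and 8.08 to 8.76 in saline mice. Of these genes 9 were detected in the medulla, among them Aqp2, Aqp3, Slc14a2 and the uroplakins, whereas Krt5 was above background on 0 of 23 arrays. The proximal tubule list, 8 of 9 genes detected, averaged 9.97 in 131I mice and 9.29 in saline mice at 12:00. Over the 21 medulla replicates, Hspa1a followed the papilla list with Pearson r = 0.95 and Spearman rho = 0.96. For Hsph1 they were 0.91 and 0.86, and for Hspb1 0.84 and 0.79. Each of these had a permutation p of 1e-05, two-sided, the smallest that 100000 permutations can give, and an adjusted p of 3.3e-05 over the 10 member probes compared. Replicates were permuted without regard to treatment or time, so these p-values also take in the differences between groups. Over all 21 replicates Hspd1 ran the other way (r = -0.52, adjusted p = 0.033, rho = -0.46, adjusted p = 0.062, permutation test), and its lid Hspe1 had r = -0.49 (adjusted p = 0.051). The other member probes lay between -0.43 and 0.38 without passing. Leaving out the 2 replicates farthest from the median of the list left r at 0.95 for Hspa1a, 0.88 for Hsph1, 0.84 for Hspb1 and -0.57 for Hspd1. For Hspa1a r was 0.91 in the 12 131I mice and 0.98 in the 9 saline mice, and for Hspd1 -0.35 and -0.38. With each replicate centred on its group r was 0.90 for Hspa1a, 0.87 for Hsph1 and 0.65 for Hspb1. Centred in this way it was -0.15 for Hspd1 and -0.41 for Hspe1. With the tissue marker lists as covariates, the 12:00 difference was -0.15 for Hspa1a (adjusted p = 0.898) and 0.01 for Hspb1 (adjusted p = 0.998), and the pooled differences were -0.03 and 0.13. The part of the inner medulla in these differences was not tested beyond this. In such bulk samples fewer cells of a type and less RNA per cell cannot be told apart.

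**Figure D2:**
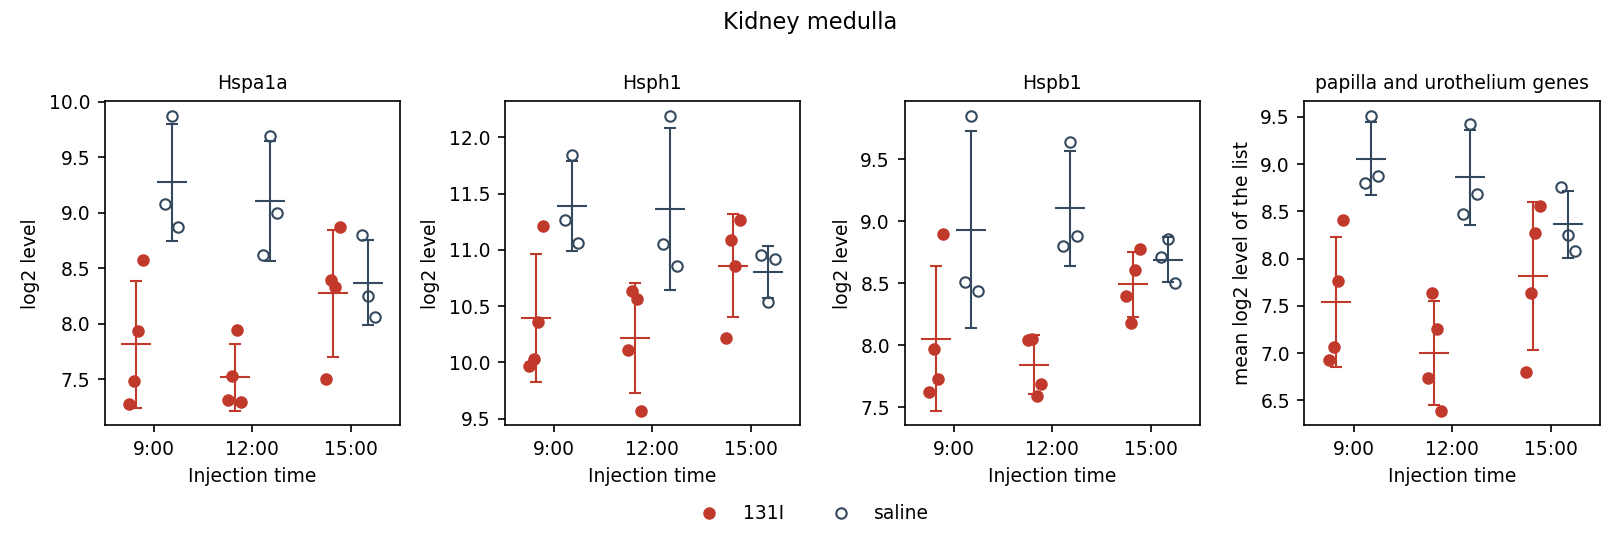
Log2 level in the kidney medulla of Hspa1a, Hsph1 and Hspb1 and of the papilla and urothelium marker list at the 3 injection times, with 131I mice left of saline mice, each point 1 replicate and each bar the mean ± SD. At 12:00 the 131I mice lie below the saline mice in all 4 panels, with Hspa1a at 7.29 to 7.94 in 131I mice and 8.62 to 9.69 in saline mice.

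In the liver at 12:00 the mitochondrial chaperonin pair, with Hspd1 read by its main probe, was lower after 131I. The lid Hspe1 was at 11.15, 10.95, 11.04 and 11.16 in 131I mice, against 11.64, 11.91 and 11.94 in saline mice. It differed by -0.75 (SE 0.13, interval -1.02 to -0.49, 1.69-fold lower, adjusted p = 0.000855). The chamber Hspd1 was at 12.53, 12.08, 12.13 and 12.13 in 131I mice and 12.66, 12.64 and 13.13 in saline mice, and differed by -0.59 (SE 0.12, interval -0.84 to -0.33, 1.5-fold lower, adjusted p = 0.00637). Neither gene's groups overlapped on these probes, which was so for 13.9% of all probes, and 1.45% of all probes were called. The second Hspd1 probe did not show the difference. Its mean was 9.25 (8.52 to 9.62) in 131I mice and 9.33 (8.95 to 9.92) in saline mice. The next member was Hspb1, at 7.07, 5.92, 6.05 and 6.71 in 131I mice and 7.64, 7.08 and 6.92 in saline mice (-0.78, adjusted p = 0.207). Of the 9 member probes tested, 7 were lower after 131I, with a median of -0.32 against 0.01 over all probes.

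The saline mice of 12:00 held the highest values of both genes among saline livers. At 9:00 Hspe1 was at 11.08, 11.15, 11.58 and 11.37 in 131I mice and 11.17, 11.41, 11.46 and 11.44 in saline mice. At 15:00 it was at 11.24, 11.64, 11.46 and 11.36 in 131I mice and 11.40, 11.11 and 11.11 in saline mice. Hspd1 lay between 12.11 and 12.39 in 131I mice and 12.09 and 12.32 in saline mice at 9:00, and between 12.39 and 12.50 in 131I mice and 12.35 and 12.51 in saline mice at 15:00. Set against the saline mice of 9:00 and 15:00, the 12:00 131I mice differed by -0.21 for Hspe1 (adjusted p = 0.797) and -0.10 for Hspd1 (adjusted p = 0.926), and neither gene was called. Without saline mouse 3 of 12:00, Hspd1 differed by -0.43 (adjusted p = 0.0784) and Hspe1 was at an adjusted p of 0.0112. The Hspd1 call also ended without saline mouse 1 or 131I mouse 2, 3 or 4 of 12:00, with differences of -0.66 to -0.54, and under 7 of 12 other settings of the processing. The Hspe1 call ended under 1 of 12, the other saline control. The hepatocyte list ranged from 11.68 to 12.06 in 131I mice and 10.84 to 11.69 in saline mice at 12:00, and a list of 5 red cell genes, 4 of them detected, from 7.23 to 7.65 in 131I mice and 6.61 to 7.08 in saline mice. Their part in the result was not tested. A dependence of the 131I difference on time came close to the threshold for Hspe1 (adjusted p = 0.0111) and less so for Hspd1 (adjusted p = 0.0634), where 0.545% of liver probes were called. At 9:00 the smallest p was that of Hsph1, at 7.57, 7.41, 8.40 and 7.80 in 131I mice and 9.00, 8.27, 8.53 and 9.09 in saline mice (-0.93, adjusted p = 0.774), and at 15:00 that of Hspe1 (0.22, adjusted p = 0.475). The background there was 0% and 0.0259%.

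**Figure D3:**
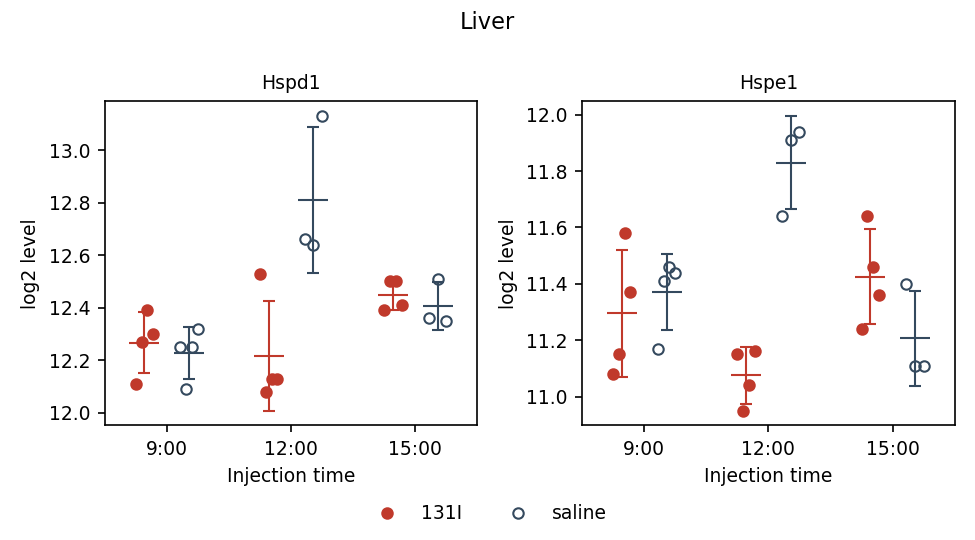
Log2 level of Hspd1 and Hspe1 in the liver at the 3 injection times, with 131I mice left of saline mice, each point 1 replicate and each bar the mean ± SD. The saline mice of 12:00 are the highest group for both genes, at 11.64 to 11.94 for Hspe1.

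In the thyroid at 9:00, Hspb1 was at 9.00, 8.89, 9.18 and 9.55 in 131I mice, against 7.92, 7.96, 7.53 and 7.85 in saline mice. It rose by 1.34 (SE 0.21, interval 0.89 to 1.78, 2.53-fold, adjusted p = 0.00189). It was the 1 member called of 8 genes, beside 12.3% of all probes. Hspd1, Hspe1 and Hsph1 were higher without being called. Hspd1 was at 12.23, 11.94, 11.74 and 11.83 in 131I mice and 11.65, 11.32, 11.05 and 11.66 in saline mice (0.52, adjusted p = 0.0273). Hspe1 was at 11.20, 10.59, 10.19 and 10.98 in 131I mice and 10.24, 9.58, 9.46 and 10.27 in saline mice (0.85, SE 0.31, adjusted p = 0.0466), with groups that overlapped. Hsph1 was at 7.91, 7.70, 8.16 and 8.23 in 131I mice and 7.35, 7.54, 7.10 and 7.64 in saline mice, a difference of 0.59 with groups apart, as for 28.2% of all probes. The median member difference was 0.19, against 0.08 over all probes.

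Markers of other tissues separated these groups. The skeletal muscle list, all 19 genes detected, was at 5.30, 12.37, 12.42 and 12.66 in the 131I mice of 9:00 and at 4.74 to 5.24 in saline mice. The salivary gland list, 12 of 14 genes detected, was at 4.92 to 5.19 in the same 131I mice and 11.06 to 11.72 in saline mice. The 131I mouse with the muscle list at 5.30 had Hspb1 at 9.00, within the range of its group. With these lists as covariates the difference of Hspb1 was 0.64 (adjusted p = 0.827). Their part in the result was not tested beyond this. Without 131I mouse 2, the thyroid that also carried lung genes, Hspb1 differed by 1.43 and stayed called (adjusted p = 0.0059), while the calls over all 12144 probes went to 817, against 1495 with this mouse. Without the third saline mouse of 9:00, Hspb1 differed by 1.25 and the call ended (adjusted p = 0.0113).

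At 12:00, where 0% of thyroid probes were called, Hspb1 was at 8.45, 8.22 and 8.81 in 131I mice and 8.57, 8.89 and 8.50 in saline mice. At 15:00, with 0% again, it was at 7.95, 9.02, 8.06 and 8.54 in 131I mice and 8.47, 8.13 and 8.48 in saline mice. The groups overlapped at both times, and the dependence on injection time had an adjusted p of 0.0103, just short of a call. The smallest p at 12:00 was that of the second Hspd1 probe (-0.60, adjusted p = 0.971), followed by the main and second Hspa8 probes (0.28 and 0.35). At 15:00 the second Hspd1 probe was at 8.79, 9.64, 8.74 and 9.10 in 131I mice and 9.88, 9.99 and 9.78 in saline mice (-0.81, adjusted p = 0.346), while Hspe1 (0.60, adjusted p = 0.435) and Hspa1a (0.47, adjusted p = 0.471) were next.

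**Figure D4:**
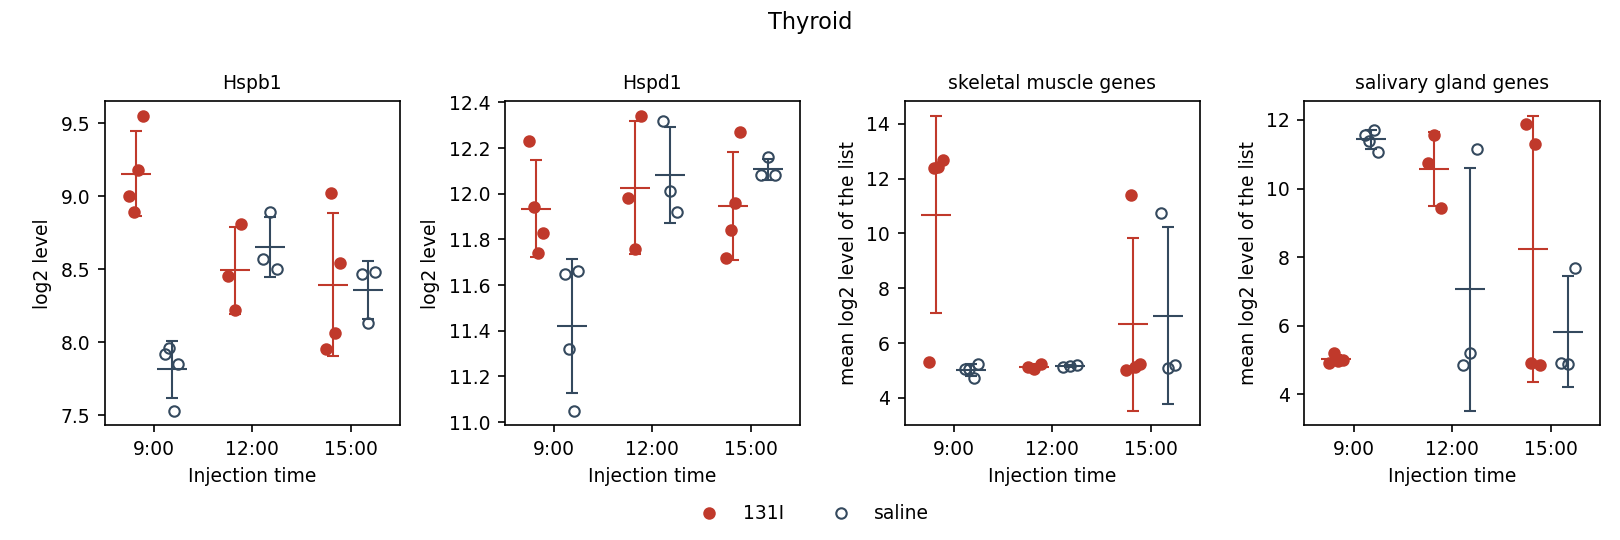
Log2 level in the thyroid of Hspb1 and Hspd1 and of the skeletal muscle and salivary gland marker lists at the 3 injection times, with 131I mice left of saline mice, each point 1 replicate and each bar the mean ± SD. At 9:00 Hspb1 lies at 8.89 to 9.55 in 131I mice and 7.53 to 7.96 in saline mice, and both marker lists also differ between these groups.

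In the kidney cortex, lung and spleen no member passed the thresholds at any time. In the cortex at 12:00, beside 0.141% of all probes called, the second Hspa8 probe was at 10.01, 10.72, 11.11 and 11.00 in 131I mice and 10.23, 10.28 and 9.04 in saline mice (0.86, SE 0.26, adjusted p = 0.253). Hspe1 was at 11.05, 10.64, 10.74 and 10.82 in 131I mice and 11.26, 11.28 and 11.36 in saline mice (-0.49, adjusted p = 0.323), the only cortex member whose groups did not overlap there, as for 9.12% of all probes. The second Hspd1 probe was at 8.22, 9.21, 9.14 and 9.33 in 131I mice and 8.38, 8.89 and 7.94 in saline mice (0.57, adjusted p = 0.527). With times pooled, Hspe1 differed by -0.33 (SE 0.09, adjusted p = 0.262) in the cortex, where 0% of all probes were called.

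In the lung, where 0% of probes were called at each time, Hspb1 at 9:00 was at 9.24, 9.91, 9.64 and 9.84 in 131I mice and 9.23, 9.07, 9.36 and 8.92 in saline mice (0.51, SE 0.24, adjusted p = 0.672). Without the saline library that carried kidney genes the difference was 0.43 (adjusted p = 0.705). The second Hspd1 probe differed by -0.69 with this library and by -0.40 without it, and Hsph1 by -0.34 with it and 0.01 without it. Hspa1a differed by -0.23 with it and 0.29 without it. At 15:00 the lung library with the high muscle list had the highest Hspb1 of its group, 10.23, where the other 131I mice were at 9.80, 9.12 and 9.00, and the Hspb1 difference of 0.23 became -0.01 without it (adjusted p = 1 both ways). In the spleen, also with 0% called, Hspe1 at 15:00 was at 10.29, 10.75, 10.51 and 10.65 in 131I mice and 10.21, 10.25 and 10.24 in saline mice, a difference of 0.32 with an adjusted p of 1. Hspb1 in the spleen at 12:00 was at 8.76, 5.85, 5.59 and 5.93 in 131I mice and 6.20, 5.04 and 5.88 in saline mice, a difference of 0.83 that was 0.08 without the first of these 131I mice. Hsph1 in the same comparison differed by 0.23 with this library and -0.21 without it.

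Injection times were also compared within each treatment. Among saline mice, 2 member results passed, and none did in the cortex, medulla, lung or spleen. In the liver Hspe1 was lower at 15:00 than at 12:00 (-0.63, SE 0.14, interval -0.91 to -0.34, 1.54-fold, adjusted p = 0.00933, with 1.75% of all probes called). In the thyroid Hspd1 was at 12.08, 12.16 and 12.08 at 15:00, against 11.65, 11.32, 11.05 and 11.66 at 9:00 (0.69, SE 0.18, interval 0.31 to 1.06, adjusted p = 0.00986, with 11.5% called), and the second probe of the gene differed by 1.08 (adjusted p = 0.0141). The saline thyroids of 9:00 were those with the salivary gland list at 11.06 to 11.72, while in the saline thyroids of 15:00 it was at 4.88 to 7.69. A fat list, all 8 genes detected, was at 10.65 to 11.07 in the saline thyroids of 15:00 and 8.74 to 10.05 in those of 9:00. The part of either list was not tested beyond the muscle and salivary lists as covariates, with which the difference was 0.45 (adjusted p = 0.342). The thyroid Hspd1 call ended in 15 of 21 omissions of a replicate and the liver Hspe1 call in 14 of 22, and neither was called without the filter on dim probes or with the replicate number as a block. Liver Hspd1 at 12:00 against 9:00 had an adjusted p of 0.00586 with a difference of 0.58, a fold below 1.5, and Hspe1 differed by 0.46 (adjusted p = 0.0399), where 2.03% of all probes were called. These comparisons share their 12:00 saline mice with the liver result of 131I. In the thyroid at 12:00 against 9:00 (0.412% called), the second Hspa8 probe differed by -1.05 (adjusted p = 0.0125), Hspd1 by 0.67 (adjusted p = 0.0196) and Hspb1 by 0.84 (adjusted p = 0.0206). In the cortex at 15:00 against 12:00 (0.196% called), the second Hspa8 probe differed by 1.12 (adjusted p = 0.0487) and Hspe1 by -0.61 (adjusted p = 0.072). In the medulla the level of Hspa1a at 15:00 minus that at 9:00 was -0.91, without a call (adjusted p = 0.411, 0.159% called). For the saline comparisons without a member call that are not described, 2.88% of all probes were called in the liver at 15:00 against 9:00, 0.0783% and 0.047% in the cortex at 12:00 and 15:00 against 9:00, 0.0151% in the medulla at 12:00 against 9:00, 0.00712% and 0.0854% in the lung at 12:00 and 15:00 against 9:00 (1 and 12 probes, which were 7 and 20 without the saline library that carried kidney genes), 0.00758% in the spleen at 15:00 against 9:00, and 0% in the rest.

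Among 131I mice no member was called between times, where at most 0.159% of all probes were in the medulla, 0.0704% in the cortex, 0.0142% in the lung (2 probes, 6 without that saline library), 0.0778% in the liver at 12:00 against 9:00 and 0% in the thyroid and spleen. The closest was in the liver at 15:00 against 9:00, where 0.873% of all probes were called. Hspa8 was at 14.29, 14.26, 14.02 and 14.36 at 15:00 and 13.42, 13.68, 13.72 and 13.72 at 9:00 (0.60, SE 0.13, adjusted p = 0.0134). Its partners Hsph1, at 9.01, 9.41, 8.28 and 9.34 at 15:00 and 7.57, 7.41, 8.40 and 7.80 at 9:00 (1.21, adjusted p = 0.0452), and Dnajb1, at 9.70, 9.79, 9.13 and 9.92 at 15:00 and 8.92, 9.10, 8.69 and 9.30 at 9:00 (0.63, adjusted p = 0.0859), were higher at 15:00 too without a call. Every 15:00 mouse was above every 9:00 mouse for both Hspa8 probes, as for 7.49% of all probes one way or the other, but not for Hsph1 or Dnajb1. The dependence of the 131I difference on time was called for no member in the cortex either, where 0.00783% of all probes were.

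Levels in the saline mice were compared between tissues after all arrays were normalized together, a scale that differs from the within-tissue levels above. A probe tested in any tissue was compared in all pairs. Over 15 pairs of tissues, 78 of the differences of 10 member probes passed both thresholds. These counts include calls of Hspa1a against the liver, spleen and thyroid, where its folds have no measured value, as given below. Between cortex and medulla 3 probes differed, where 8.37% of all probes did. The thyroid differed from the cortex in 5 (36.6% of all probes), from the medulla in 5 (37.6%), from the liver in 3 (40%), from the lung in 6 (48.3%) and from the spleen in 7 (53.7%). The cortex differed from the liver in 4 (35.8%), from the lung in 7 (42.5%) and from the spleen in 4 (51.5%), and the medulla in 6 (39%), 6 (39.8%) and 5 (51%) from the same tissues. The liver differed from the lung in 6 (50.9%) and from the spleen in 5 (53.8%), and the lung from the spleen in 6 (43.4%). Without the lung library that carried kidney genes, the lung differed from the thyroid in 5 and from the spleen in 7. Hspa1a was highest in the medulla, at 8.67 ± 0.60 (SD, n = 9), above the cortex at 7.0 ± 0.26 (n = 10, difference 1.65, adjusted p = 2.55e-08). The lung followed at 6.02 ± 0.66, and at 5.86 ± 0.46 (n = 9) without the library that carried kidney genes. The thyroid (5.49 ± 0.78), where 10 of 23 arrays were above background, and the spleen (4.69 ± 0.18) and liver (4.67 ± 0.23), where 1 and 0 were, lay partly or wholly at background for Hspa1a, so that their order and the folds against them have no measured value.

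Hsph1 was also highest in the medulla (10.98 ± 0.54), above the cortex at 9.75 ± 0.21 (difference 1.24, adjusted p = 2.66e-07). Below the cortex came spleen (9.36), liver (8.99), lung (8.85) and thyroid (8.43), with no neighbours called apart. Further apart, the thyroid was called below the spleen (-0.92). Hspb1 formed 3 steps. The thyroid (9.04 ± 0.40), lung (8.79 ± 0.24) and medulla (8.66 ± 0.51) were not called apart. The medulla was above the liver (7.20 ± 0.46) by 1.46 (adjusted p = 3.95e-09), and the cortex (7.04 ± 0.53), next to the liver, was above the spleen (5.65 ± 0.50) by 1.38 (adjusted p = 5.27e-09). Dnajb1 was highest in the spleen (10.85 ± 0.34), followed by lung (10.30), medulla (9.99), cortex (9.88), thyroid (9.82) and liver (9.37 ± 0.34). The spleen differed from the lung by 0.51 (adjusted p = 5.13e-05), and every neighbour differed by less than 1.5-fold. Further apart, the liver was called below the spleen (-1.43).

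The mitochondrial pair was lowest in the lung. The main probe of Hspd1 was at 12.21 in the thyroid, 12.19 in the liver, 12.15 in the cortex, 11.98 in the medulla and 11.60 in the spleen, with no neighbours called apart. The spleen was above the lung (10.72 ± 0.38) by 0.88 (adjusted p = 4.02e-10). On the second Hspd1 probe the spleen was also called above the lung (0.94). This probe was further called higher in the thyroid than the liver (0.69, adjusted p = 0.0052) and in the medulla than the spleen (1.22, adjusted p = 3.69e-06). Hspe1 had the same last step, with 10.45 ± 0.24 in the spleen and 9.46 ± 0.41 in the lung (0.98, adjusted p = 1.08e-09), below liver (11.34), cortex (10.90), thyroid (10.83) and medulla (10.74). Of the main probes that of the constitutive Hspa8 spanned the least, between 14.57 ± 0.06 in the cortex and 13.81 ± 0.30 in the thyroid, and no neighbours differed by a called amount. Further apart, the thyroid was called below the cortex (-0.78) and medulla (-0.72), and the cortex above the liver (0.64). The second Hspa8 probe was highest in the medulla (10.47) and lowest in the lung (9.43). Hsp90aa1 ranged from 8.60 ± 0.55 in the spleen to 7.21 ± 0.64 in the thyroid, again without a call between neighbours. The thyroid was called below the spleen (-1.37), lung (-1.24) and medulla (-1.16).

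**Figure D5:**
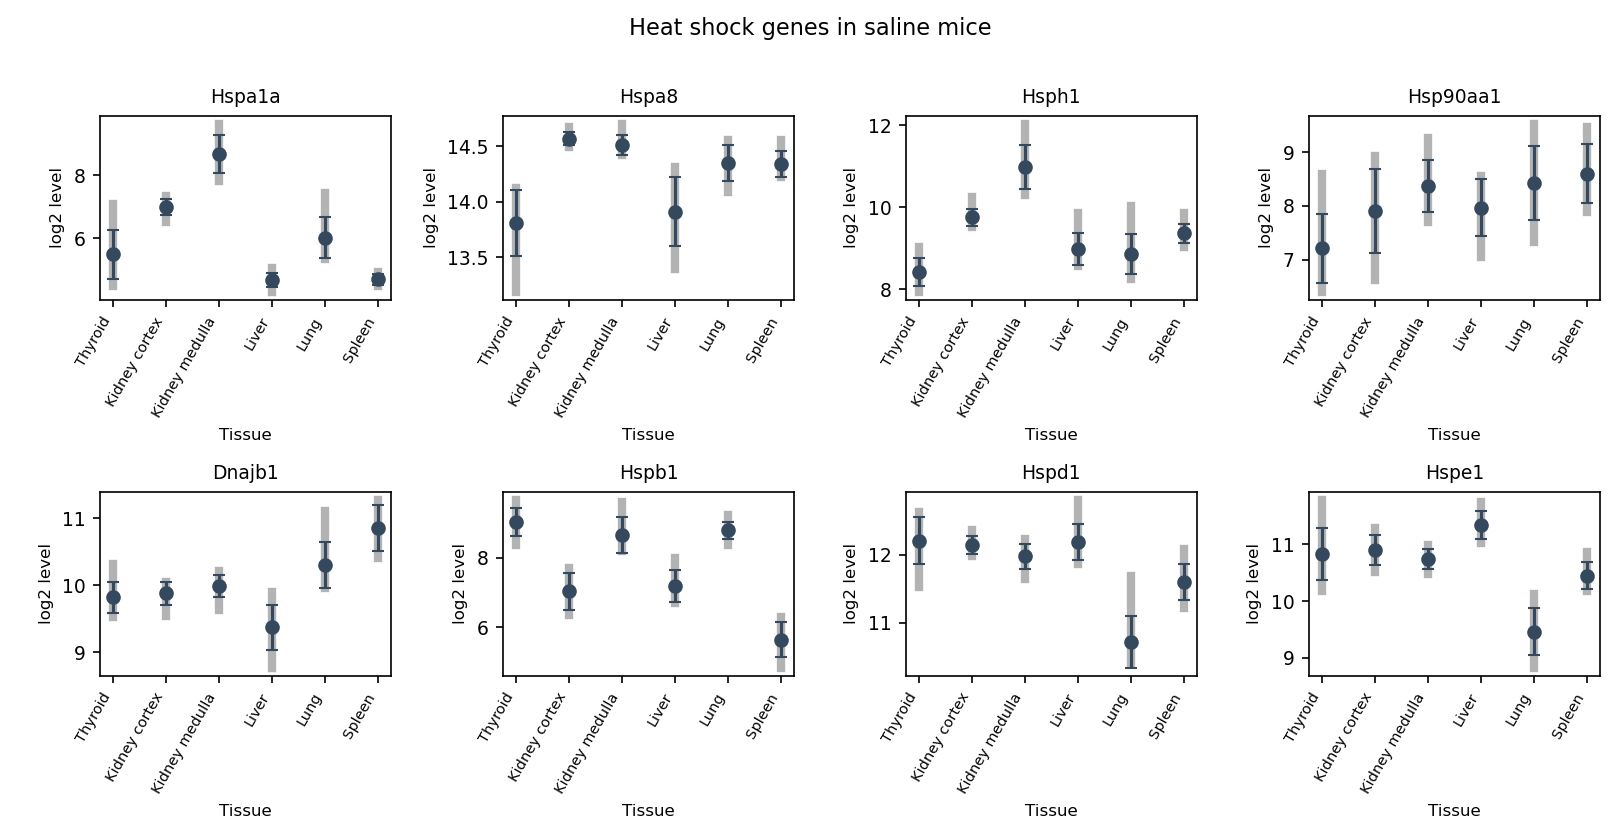
Log2 level of the main probe of each of the 8 member genes in 6 tissues of saline mice (all arrays normalized together), each point the mean over 9 or 10 replicates, thin bars the SD and grey bars the range. Hspa1a and Hsph1 are highest in the medulla, at 8.67 and 10.98, and Hspd1 and Hspe1 lowest in the lung, at 10.72 and 9.46.

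Members differed in how they varied together. Levels were centred on the mean of each tissue, over 130 replicates that share animals, arrays and, in part, mixed tissue, so the correlations are given as a description. Hspd1, on its main probe, and Hspe1 correlated at r = 0.65, and at 0.47 to 0.76 within single tissues. Hspe1 was as close to Hsp90aa1 (0.65, and 0.42 to 0.79 within single tissues). With the second Hspd1 probe its r was -0.24. Hspa1a and Hsph1 correlated at 0.55, most in the medulla (0.93), and at 0.44 over 128 replicates without the libraries that carried kidney genes. In the spleen their r was 0.80 with the affected library and 0.17 without it. Hspa1a and Hspb1 correlated at 0.86 in the medulla and Hsph1 and Hspb1 at 0.84. Probes of the same gene were less alike than this. Both Hspa8 probes correlated at 0.36 and both Hspd1 probes at 0.15. The second Hspd1 probe instead correlated with the second Hspa8 probe at 0.65 and with Hsp90aa1 at -0.62. The Hsp90aa1 probe and the second Hspd1 probe also had the widest differences between repeat arrays. The second Hspa8 probe differed by 0.67 at most (median 0.36). Hspe1 differed by 0.66 at most (median 0.47) and Hspa1a by 0.81 at most (median 0.18).

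Likeness was taken to the mean of 5 cytosolic members, Hspa1a, Hsph1, Dnajb1, Hsp90aa1 and Hspa8, each with equal weight. Hspb1 was left out of this mean, and Hspa1a entered it also from the liver and spleen, where it was at background. The 8657 probes of other genes above background on at least 80% of arrays were ranked by r over the 130 tissue-centred replicates. Both Coq10b probes (0.59 and 0.51), Ppme1 (0.55), Zfp672 (0.52), Noct (0.52), Dnajb9 (0.51), Mkks (0.49), Fastkd5 (0.49), Exosc6 (0.47) and Nr1d2 (0.46) were highest among named probes, and Xpa (-0.56), Tab2 (-0.53), Psen2 (-0.50), Stk4 (-0.48) and Cdk5rap2 (-0.47) lowest. The median r over these probes was -0.01. Without the 2 libraries that carried kidney genes, Coq10b kept the first place at 0.56, whereas Mkks went to place 36.

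Other chaperone genes were counted by families. In the thyroid at 9:00, where 12.3% of all probes were called, 1 of 5 tested HSP70 and HSP110 relatives (Hspa1l, 1.79, adjusted p = 0.00668), 2 of 6 HSP40 genes (Dnajb6, 0.91, adjusted p = 0.00267, and Dnaja4, 1.55, adjusted p = 0.00516), 1 of 6 small heat shock proteins (Hspb7, 2.58, adjusted p = 0.00873) and 1 of 8 mitochondrial chaperones and proteases (Clpx, a protein-unfolding ATPase, 1.51, adjusted p = 0.00672) were higher in 131I mice. None of 10 HSP90 cochaperones, 8 genes of the HSF1 and nucleotide exchange list or 8 subunits of the cytosolic chaperonin was called. The median over the small heat shock proteins was 2.49, against 0.08 over all probes. Several of them, such as Hspb7, are known from muscle. The muscle list differed between these libraries as given above, and its part in these genes was not tested. Of 10 endoplasmic reticulum chaperones 4 fell and none rose, with a median of -0.50. They were Hsp90b1 (-0.96), Pdia3 (-1.56), Dnajc3 (-1.50) and Pdia4 (-0.89). The salivary gland list was higher in the saline libraries of this comparison, as given above, and its part in these genes was not tested.

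In the medulla at 12:00, where 4.25% of all probes were called, Cryab, a small heat shock protein that shares the chaperone domain of Hspb1, fell with it (-2.15, adjusted p = 0.00729), as 1 of 4 tested relatives. Hspa5, the HSP70 of the endoplasmic reticulum (1.09, adjusted p = 0.00402), and Cct5, a subunit of the cytosolic chaperonin (1.16, adjusted p = 0.00691), rose. No other HSP70, HSP40, HSP90 cochaperone, HSF1 list or mitochondrial gene was called. With times pooled, Cryab (-1.41) and Hspb2 (-0.59) were lower, beside 2.79% of all probes called. In the liver at 12:00, where 1.45% of all probes were called, Cct3 was the 1 chaperonin subunit of 8 that was called (-0.61, adjusted p = 0.000531). All 10 chaperonin probes were lower in 131I mice there (median -0.43), as were all 9 probes of the mitochondrial list (median -0.28) and 9 of 10 probes of HSP90 cochaperones (median -0.26), against 0.01 over all probes. Clpx and Grpel2, both of mitochondria, differed between times in saline livers, Clpx by -1.34 at 15:00 against 12:00 (adjusted p = 0.000968, 1.75% of all probes called) and Grpel2 by 0.89 at 12:00 against 9:00 (adjusted p = 0.00283, 2.03% called). Clpx also did so in 131I livers at 15:00 against 9:00 (-1.55, adjusted p = 5.2e-05, 0.873% called).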

How the data were processed

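RNA from 6 tissues was hybridised by the authors to Illumina mouse bead arrays. The deposited values are probe intensities, not background-corrected, each with a detection p-value deposited by the authors. The authors' quantile-normalized intensities were used only as an alternative, and their calls not at all. Background was taken off with limma's nec from the detection p-values (offset 16), and each tissue was then quantile-normalized by itself on the log2 scale. Repeat arrays were averaged. A tissue's tests covered the probes that 3 or more of its arrays showed above background (detection p under 0.01). The 6 groups of a tissue entered 1 limma fit with an intensity trend (limma 3.58.1, R 4.3.3). Contrasts were 131I minus saline at each time and pooled, their dependence on time, and times within a treatment. Calls took an adjusted p (Benjamini-Hochberg) under 0.01 and a fold of at least 1.5, the thresholds of the study. For tissues, all arrays were normalized together and saline replicates fitted, over the probes tested in any tissue. Of 25697 probes, 23978 carried 1 gene symbol and 1719 were not named. A gene with several probes was represented by that above background on most arrays.

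The 10 members and the lists were chosen with earlier results of these data known. All probes of members were named. Of other chaperone lists, up to 5 called genes a comparison were named by adjusted p, and likeness was ranked by r. Replicates were those the labels name. p-values measure the spread between animals of 1 cage per group. The fit was tested on simulated data. Alternatives were background correction, normalization, filter, fold limit, repeats, a replicate block, leaving out each replicate, marker covariates and other saline controls. Promoters were RefSeq sequences of GRCm38.p6. Arrays carry no count depth, and the number of arrays limits the precision.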

Additional observations from a re-analysis of the deposited data

Results flagged for a closer look

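Dixon's test at 95% was applied to each member probe in each group of 4 replicates. In 16 of 212 groups 1 replicate lay apart from the rest, where chance gives about 1 in 20. Of these, 2 lay in the libraries that carried kidney genes, namely Hspa1a in the lung of saline mouse 4 at 9:00 (7.91, others 5.75 to 5.97) and Hspb1 in the spleen of 131I mouse 1 at 12:00 (8.76, others 5.59 to 5.93). In the liver, Hspd1 of 131I mouse 1 at 12:00 was at 12.53 (others 12.08 to 12.13), the group with a called difference, and Hspa8 of 131I mouse 1 at 9:00 was at 13.42 (others 13.68 to 13.72).

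The probes with the widest differences between repeat arrays gave 5 of the 16. Hsp90aa1 was at 5.94 in the thyroid of saline mouse 2 at 9:00 (others 6.46 to 6.56), 8.10 in the medulla of 131I mouse 4 at 9:00 (others 8.73 to 8.76) and 7.95 in the lung of 131I mouse 4 at 12:00 (others 9.18 to 9.43). The second Hspd1 probe was at 9.59 in the cortex of 131I mouse 2 at 9:00 (others 9.29 to 9.32) and 8.67 in the medulla of 131I mouse 2 at 9:00 (others 9.29 to 9.32).

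The rest were single values. Hspa8 was at 14.72 in the cortex of 131I mouse 4 at 15:00 (others at most 14.57), 14.36 in the medulla of 131I mouse 1 at 15:00 (others 14.53 to 14.56) and 14.47 in the lung of 131I mouse 1 at 12:00 (others 14.27 to 14.29). Hsph1 was at 9.73 in the cortex of 131I mouse 3 at 12:00 (others 10.06 to 10.11) and 9.36 in the lung of 131I mouse 4 at 9:00 (others 8.73 to 8.83). Hspd1 was at 12.21 in the cortex of 131I mouse 3 at 9:00 (others 11.97 to 12.00). Dnajb1 was at 10.41 in the spleen of saline mouse 2 at 9:00 (others 11.08 to 11.15).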

How the results depend on the processing

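The 5 member calls of 131I against saline became 3 with median scaling, without the filter on dim probes, with no background correction and with the intensities the authors normalized, and 2 with marker covariates or with the saline mice of 9:00 and 15:00 as control. They were 4 to 7 under the other 6 settings, 4 with the replicate number as a block. Leaving out 1 replicate left 3 to 5. The 2 pooled calls became 0 with marker covariates (1 to 3 leaving out 1 replicate). Under these covariates Hspb1 in the medulla turned to 0.01 at 12:00 and 0.13 pooled. Among the 0 calls of time dependence, 1 appeared with repeats counted singly and 1 with repeats left out (0 to 1 leaving out 1 replicate). The 2 calls between saline times became 1 with median scaling, with the authors' values, with no background correction, with only the compared groups fitted or with repeats left out, 0 without the filter or with the replicate block, and 6 with repeats counted singly (1 to 4 leaving out 1 replicate). The 0 calls between 131I times became 1 with the authors' values (0 to 1 leaving out 1 replicate). The 78 tissue calls ranged from 69 to 100, and from 76 to 81 leaving out 1 replicate. Why settings differ was not tested. Leaving out the libraries that carried kidney genes changed none of these member counts within tissues.

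By result and over the settings other than omissions, Hspb1 in the medulla at 12:00 lost its call in 7 of 12 and turned in 1, and its pooled call turned in 1 of 10. Hspa1a there lost its call in 1 of 12, and its pooled call in 1 of 10. Hspd1 in the liver lost it in 7 of 12 and Hspe1 in 1 of 12, and Hspb1 in the thyroid in 1 of 12. Of the saline times, Hspd1 in the thyroid lost it in 7 of 11 and Hspe1 in the liver in 5 of 11. Leaving out 1 replicate, Hspa1a in the medulla at 12:00 lost its call in 4 of 21 omissions, and its pooled call in 0 of 21. Hspb1 there lost it in 15 of 21 at 12:00 (differences -1.42 to -1.0) and 8 of 21 pooled. Hspd1 in the liver lost it in 5 of 22 and Hspe1 in 1 of 22. Of the saline times, Hspe1 in the liver lost it in 14 of 22 and Hspd1 in the thyroid in 15 of 21. Replicates of equal number had correlated deviations with a median of -0.05 to 0.073 by tissue. The lowest of a tissue's pairs were at -0.627 to -0.232 and the highest at 0.217 to 0.445. Equal numbers were therefore not taken to pair the samples. Marker covariates, the other saline control and omission of the 2 libraries were chosen after seeing the data.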
